A study of Mus musculus with 24 samples.

Results

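The data described here are the response of mouse bone marrow macrophages to receptor activator of NF-κB ligand (RANKL) after 3 days of culture, in cells of the control genotype. They rest on 6 of the 24 RNA-seq libraries of the series, chosen by their labels: 3 from cells in medium with macrophage colony-stimulating factor (M-CSF) but no RANKL and 3 from cells given both, all from day 3. The control cells carry a Runx1 transgene at the Rosa26 locus (Rosa26-Runx1tg/+) and no Cre, and the labels name them wild type controls and give the cell type of every library as osteoclasts, M-CSF alone included. The other genotype carries the same transgene with LysM-Cre, in which Cre is driven from the lysozyme 2 gene of myeloid cells, and the series also sampled day 5. Osteoclast medium held 50 ng/mL RANKL and 30 ng/mL M-CSF, and the sources used here do not give the dose of M-CSF in wells with M-CSF alone. Marrow was flushed from long bones, red cells were lysed, macrophages were expanded on petri dishes, and 250 ng of total RNA entered each library. The labels carry a number from 1 to 3 in each group and do not say what it stands for, nor do they give the age or sex of the mice. The p-values use a spread estimated over all 24 libraries. They thus measure only how much the samples of the series vary within their groups, and that variation may be technical.

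RANKL binds its receptor RANK on macrophages and, with M-CSF for survival, turns them into osteoclasts, the large multinucleated cells that dissolve bone. RANK recruits TRAF6 and starts NF-κB and AP-1 signalling, which together with calcium signals from ITAM-bearing receptors induce the transcription factor NFATc1. The mature cell seals an area of bone with a ring of actin, acidifies it with a proton pump and a chloride channel, and secretes cathepsin K and other enzymes that digest collagen.

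Library totals ran from 20313910 to 23455796 counts in M-CSF alone and from 19785419 to 23923205 counts with RANKL, and a single count was worth 0.0403 to 0.0516 counts per 1000000 counts (CPM). Levels are given below in CPM of the scaled library, in the order of numbers 1, 2 and 3. Within M-CSF alone, number 1 stood apart from the others in several gene groups, as the plot of summed levels by library shows. Its summed level was 50.1% of the group mean for genes of DNA replication, 57.0% for cholesterol synthesis and 72.3% for serine and amino acid supply, against 126% for interferon-stimulated genes. With RANKL, number 3 was lowest in bone resorption genes, at 80.5% of the group mean. It was highest in genes of DNA replication and of mitosis, at 128% for each, and number 1 was lowest there, at 79.5% and 82.7%. In M-CSF alone number 1 was likewise the lowest library of both lists. Results that rest on 1 of these libraries are given with and without it.

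**Figure D1:**
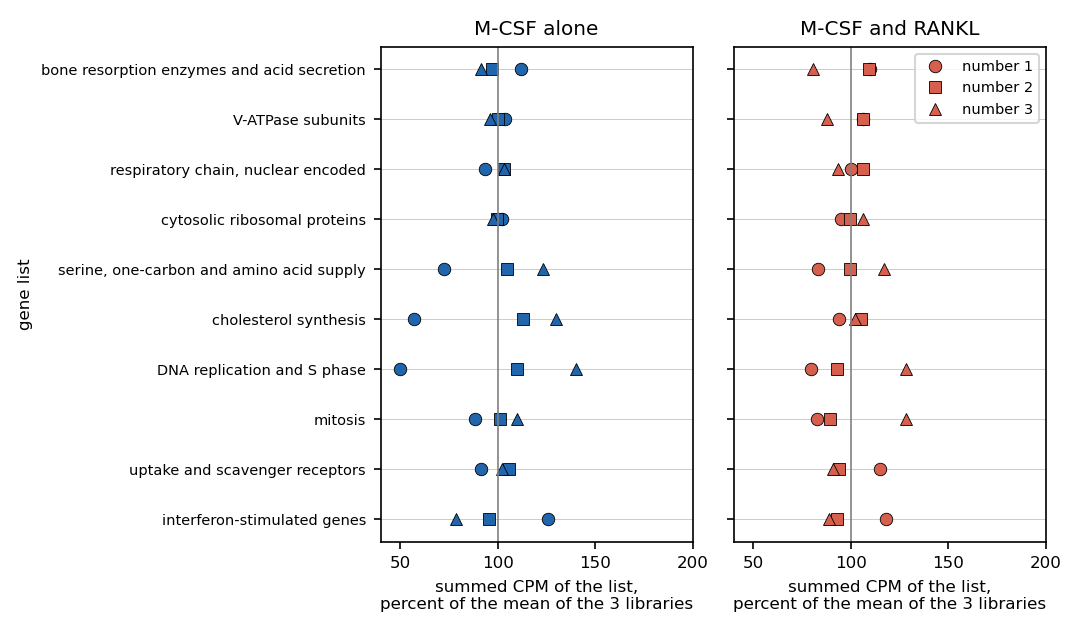
Summed CPM of 10 gene lists in each library, as percent of the mean of its 3 libraries (x axis), for M-CSF alone on the left and M-CSF with RANKL on the right. Circles, squares and triangles are numbers 1, 2 and 3. In M-CSF alone, number 1 lay at 50.1% for DNA replication and number 3 at 140.0%.

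The level of most genes tested differed between the media with and without RANKL. The dose of M-CSF without RANKL is not given, and the part of M-CSF dose in these differences was not tested. Of 15035 genes, 8888 (59.1%) passed an adjusted p under 0.05 in edgeR's quasi-likelihood test, 4428 (29.5%) higher and 4460 (29.7%) lower with RANKL, and the median log2 fold change over all genes was −0.03. Large changes were mostly rises: 611 genes (4.06%) were over 16-fold higher and 103 (0.685%) over 16-fold lower, and this last count was 168 without number 1 of the RANKL group. The values of the groups did not overlap for 9183 genes (61.1%). Counts of members called in the lists below are to be read against these shares. Where a gene is given by its value in each library, the groups did not overlap unless an overlap is stated. The lists were drawn up from textbook pathways, but with earlier results of these data known. Their members are described by counts and medians, with no test of the list.

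**Figure D2:**
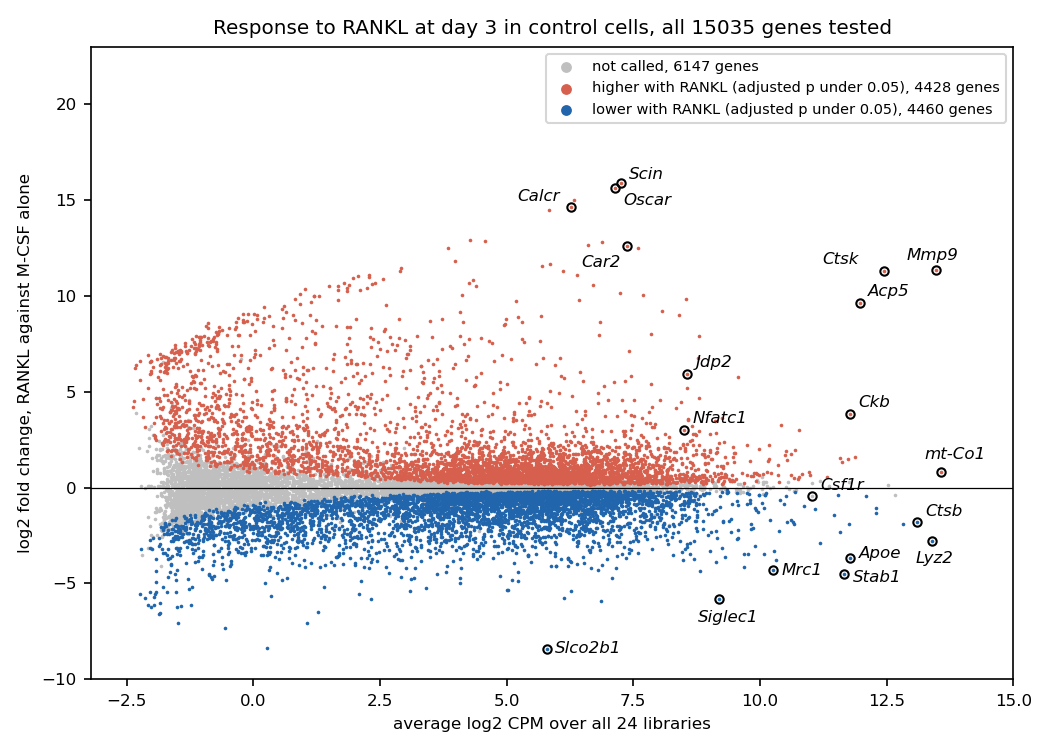
Log2 fold change of RANKL against M-CSF alone at day 3 (y axis) against average log2 CPM over all 24 libraries (x axis), 1 point per gene. Red and blue points are the 4428 genes called higher and the 4460 called lower, grey points were not called. The highest points, such as Scin, are of genes at 0 counts in M-CSF alone, whose fitted position is no measure of size. The largest fall is −8.43 (Slco2b1).

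The 4 marker genes separated the groups. The positions given are those of the deposited table, which match GRCm38. Ctsk (ENSMUSG00000028111, chromosome 3, 95499256 to 95509362), which encodes the collagen-degrading protease cathepsin K, stood at 5.92, 3.22 and 2.82 CPM in M-CSF alone and 10810.5, 11650.4 and 8232 CPM with RANKL. Mmp9 (ENSMUSG00000017737, chromosome 2, 164940780 to 164955850), a matrix metalloproteinase, stood at 7.23, 10.0 and 9.79 CPM in M-CSF alone and 26357, 25869.5 and 18998 CPM with RANKL. Acp5 (ENSMUSG00000001348, chromosome 9, 22126727 to 22135711), the tartrate-resistant acid phosphatase by which osteoclasts are stained, stood at 10.4, 9.51 and 7.66 CPM in M-CSF alone and 8668, 7956 and 5547 CPM with RANKL. In all 3 the lowest library with RANKL was number 3, and the libraries of M-CSF alone, labelled as osteoclasts, were near 0. Mrc1 (ENSMUSG00000026712, chromosome 2, 14229392 to 14332057), the mannose receptor of macrophages, moved the other way, from 2080.4, 2758 and 2647 CPM in M-CSF alone to 167, 119.7 and 86.4 CPM with RANKL, so that the highest library with RANKL lay below every library in M-CSF alone. Per kilobase of gene length, the mean level with RANKL was 6766 RPKM (CPM per kilobase) for Ctsk, 6709 for Mmp9 and 3640.4 for Acp5. The largest gains in CPM after Mmp9, Ctsk and Acp5 were those of the brain-type creatine kinase gene Ckb, from 467 to 6763 CPM, and of mt-Co1, from 8253 to 14548 CPM. The largest losses were those of the lysozyme gene Lyz2, from 20661 to 3034 CPM, and the cathepsin B gene Ctsb, from 12554 to 3597 CPM.

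**Figure D3:**
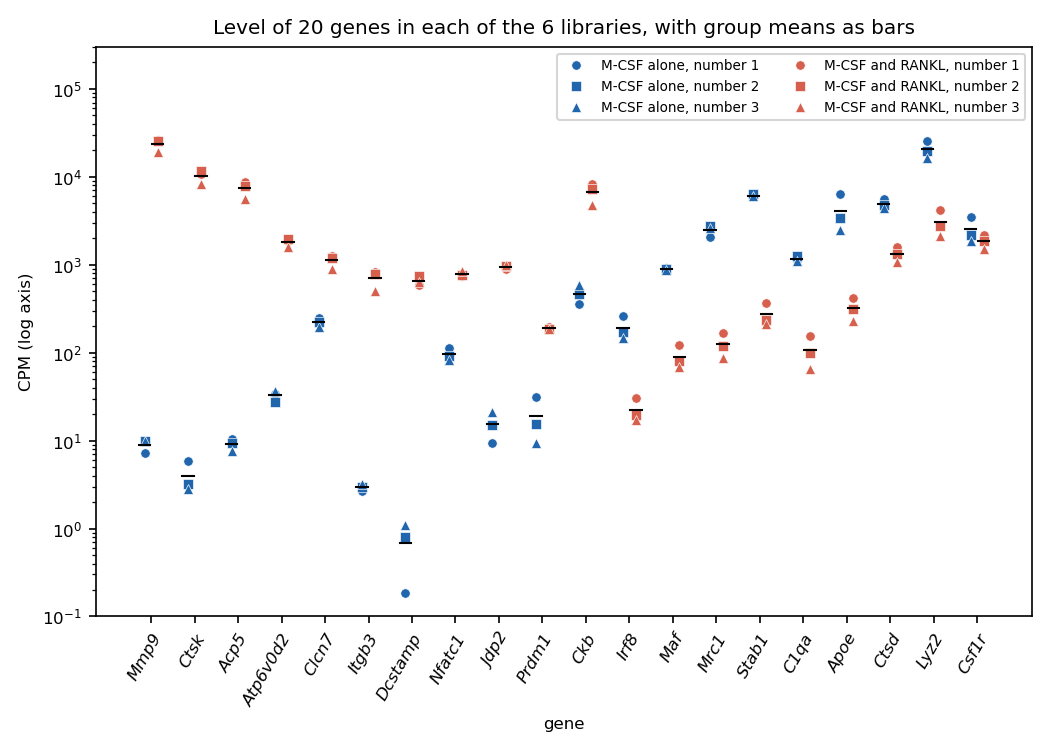
CPM on a log axis (y) of 20 genes (x) in each of the 6 libraries. Blue is M-CSF alone, red is M-CSF with RANKL, the marker shape is the library number and black bars are group means. The groups do not overlap for 19 of the genes. Those of Csf1r do, at 2523 and 1855 CPM on average.

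In M-CSF alone 12 genes had 0 counts in all 3 libraries and at least 10 CPM in each library with RANKL, and 0 genes showed the reverse. Folds for these are lower bounds against 3 counts over the group and cover counting error only. Scin, which encodes the actin-severing protein scinderin, was at least 7645-fold higher, at 250.3, 384 and 398 CPM with RANKL. Oscar, an immune receptor that signals through the Fc receptor γ chain, was at least 6492-fold higher, at 352, 308 and 196 CPM. Bounds for the calcitonin receptor gene Calcr and the metalloreductase gene Steap4 were 3290-fold and 2992-fold. The others were Rufy4, a gene with a RUN and a FYVE domain (at least 4107-fold higher), the mesothelin gene Msln (961-fold), Kank1 (732-fold) and the lymphatic growth factor gene Vegfc (464-fold), and the bounds of the remaining 4 ran from 267-fold to 985-fold. Among genes with a few counts in M-CSF alone, the largest fitted rises were those of the metallothionein gene Mt3 (12.83 log2 units), the receptor kinase gene Mst1r (12.64), Car2 (12.60) and Ocstamp (12.50).

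The largest falls included many genes of macrophages. The organic anion transporter gene Slco2b1 went from 96.8, 80.4 and 71.3 CPM in M-CSF alone to 0.169, 0.258 and 0.288 CPM with RANKL. Tox2, a nuclear factor of the HMG box family, fell by 6.51 log2 units and the coagulation factor gene F13a1 by 5.93. The sialic acid receptor gene Siglec1, the microglia and macrophage gene Gpr34 and the scavenger receptor gene Marco fell by 5.80, 5.43 and 5.39. The blood cell transcription factor gene Lyl1 fell by 5.37. The Fc receptor-like gene Fcrls, the protease gene Adam33, the immunoglobulin gene Ighm, and Ctla2a and Ctla2b complete the 12 largest, and the last 2 are near-identical neighbours whose reads the counting may have split. Even the largest of these left counts behind: no gene with at least 10 CPM in each library of M-CSF alone was at 0 in all 3 libraries with RANKL.

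Genes for dissolving bone were among those that rose the most. Of 15 tested members of the resorption and acid secretion list, 13 rose and 1 fell, with a median of 3.50 log2 units, and their summed share went from 0.188% ± 0.0196 to 5.09% ± 0.860 of the library (mean ± SD, n = 3). Carbonic anhydrase 2, which supplies the protons, is encoded by Car2, which rose from 0.0622 ± 0.108 to 401 ± 25.1 CPM. Atp6v0d2, a subunit of the proton pump that osteoclasts favour, went from 34.2, 27.8 and 36.6 CPM in M-CSF alone to 1882, 1956 and 1605 CPM with RANKL. The chloride-proton exchanger gene Clcn7 and its partner Ostm1 rose by 2.33 and 0.93 log2 units, and the chloride-bicarbonate exchanger gene Slc4a2 by 3.20. Snx10, a sorting nexin whose loss causes osteopetrosis, rose by 3.50, and the membrane metalloproteinase gene Mmp14 by 6.76. The small GTPase genes differed from one another. Rab38 rose by 6.73 (SE 0.36), Rab7 by 0.33 (SE 0.08), and Rab3d, which acts in secretion, fell by 1.21 (SE 0.16). The lysosomal adaptor gene Plekhm1 did not pass (0.23, SE 0.16, adjusted p = 0.241). Number 3 was the lowest library with RANKL for 13 of the 13 genes that rose.

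Fusion of macrophages needs a set of membrane proteins, and the genes best known for it were nearly silent in M-CSF alone. The list of fusion and adhesion genes had 11 rises and 4 falls among 18, with a median of 2.07. Dcstamp, which encodes the membrane protein DC-STAMP required for fusion, stood at 0.186, 0.792 and 1.09 CPM in M-CSF alone and 582, 755 and 639 CPM with RANKL. Its relative Ocstamp rose from 0.0693 ± 0.0830 to 459 ± 68.7 CPM and the sialic acid receptor gene Siglec15 from 0.0311 ± 0.0269 to 116 ± 14.6 CPM. The vitronectin receptor that attaches osteoclasts to bone is a pair of integrins. Its β3 chain gene Itgb3 went from 2.70, 2.98 and 3.22 CPM in M-CSF alone to 838, 792 and 506 CPM with RANKL, and its αv chain gene Itgav rose by 3.64 log2 units. The β5 chain gene Itgb5, whose product pairs with the same αv chain, fell by 2.31, from 325 to 65.5 CPM. Among the tetraspanins Cd9 rose by 0.60 and Cd81 fell by 2.84. Adam8 fell by 1.92 and Cd47 by 0.38, and Sirpa, which encodes the receptor of CD47, did not pass (−0.19, SE 0.12, adjusted p = 0.168).

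Genes of the sealing zone, the actin ring that encloses the resorbed area, split within protein families. Of 25 tested, 14 rose and 8 fell (median 0.35). The tyrosine kinase gene Src, without which osteoclasts form no ruffled border, stood at 3.08, 1.68 and 2.14 CPM in M-CSF alone and 609, 617 and 561 CPM with RANKL. Cortactin (Cttn) rose by 5.81 log2 units, the Rac activator gene Dock5 by 4.14, and the adhesion proteins vinculin (Vcl) and paxillin (Pxn) by 2.70 and 1.44. Rac2 rose by 1.78 while its near relative Rac1 fell by 0.58, and the adaptor Cblb rose by 0.79 while Cbl fell by 0.99. The pyrin-binding adaptor gene Pstpip1 rose by 2.30 and the paxillin relative Lpxn fell by 1.60. Filamin A (Flna), kindlin-3 (Fermt3) and the kinase gene Ptk2b did not pass, with values of −0.15, −0.15 and −0.24.

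The receptor for RANKL rose under its own ligand. Tnfrsf11a, which encodes RANK, stood at 57.3, 90.7 and 117 CPM in M-CSF alone and 290.3, 339.6 and 349.9 CPM with RANKL (log2 fold change 1.89, SE 0.22). The RANK and NF-κB signalling list had 24 rises and 7 falls among 36 genes, with a median of 0.61. Of the TRAF adaptors, Traf1 rose from 6.21 ± 0.998 to 248 ± 16.3 CPM, and Traf5, Traf3, Traf6 and Traf2 rose by 1.65, 1.41, 1.18 and 0.93 log2 units. Genes of the alternative NF-κB route, Nfkb2 and Relb, rose by 2.14 and 1.94. Rela, of the classical route, stood at 96.5, 86.1 and 84.5 CPM in M-CSF alone and 103, 90.5 and 87.2 CPM with RANKL, its groups overlapped, and it did not pass. Nfkb1 rose by 0.21, a call lost without number 2 of either group or number 3 of the RANKL group. Nfkbia, which encodes the NF-κB inhibitor IκBα, went from 53.8, 41.6 and 44.5 CPM in M-CSF alone to 481, 486 and 434 CPM with RANKL, and the gene of the deubiquitinase A20, Tnfaip3, rose by 3.78. The MAP kinase genes moved in different directions: Mapk8 rose by 1.14 and Map2k3 by 1.44, while Mapk3, Mapk14 and Mapk9 fell by 1.53, 1.19 and 0.85. The alternative RANKL receptor Lgr4 rose from 0.829 ± 0.229 to 5.87 ± 0.523 CPM.

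In the costimulatory arm, Oscar had the largest change of its list. ITAM adaptors supply calcium signals alongside RANK, and of 31 genes of ITAM and calcium signalling 9 rose and 17 fell (median −0.36). Trem2, a receptor that signals through the adaptor DAP12, went from 610.5, 495 and 491 CPM in M-CSF alone to 89.4, 56.6 and 60.1 CPM with RANKL. The Fc receptor γ chain gene Fcer1g fell by 1.73 log2 units, from 617 to 186 CPM. DAP12 itself, encoded by Tyrobp, had a value of −0.36 (SE 0.12), a call lost without number 1 of M-CSF alone or number 3 of the RANKL group. The calcium channel genes Orai1, Stim1 and Itpr1 fell by 0.82, 0.70 and 0.91, and Trpv4 by 2.85, whereas the receptor channel gene Itpr3 rose by 1.41. Rcan1, a target and regulator of calcineurin, rose by 2.24. The phosphatase gene Inpp5d (SHIP1) and the paired receptor gene Pirb, both negative regulators, fell by 0.92 and 0.77. Plcg1 did not pass (−0.02, SE 0.11) and Plcg2 fell by 0.39.

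Among transcription factors of osteoclast formation, 14 of 27 rose and 7 fell (median 0.56). Nfatc1, the factor that directs the programme, stood at 114, 90.9 and 83.5 CPM in M-CSF alone and 740.4, 768 and 844 CPM with RANKL. Its relative Nfatc2 went the other way, from 153, 121 and 120.2 CPM in M-CSF alone to 25.9, 18.2 and 23.3 CPM with RANKL, and Nfatc3 did not pass (0.07, SE 0.09). The AP-1 family rose in part. Fos, whose loss stops osteoclast formation, went from 7.04, 7.83 and 14.8 CPM in M-CSF alone to 92.3, 125 and 186 CPM with RANKL, and Jdp2, Fosl2, Junb and Jund rose by 5.94, 4.70, 2.33 and 1.12 log2 units. Jun (0.50, SE 0.33), Fosb (−1.57, SE 1.14) and Fosl1 (−0.31, SE 0.69) did not pass, and Batf fell by 0.89. Repressors known to clear inhibitors of the programme rose: Prdm1, which encodes Blimp1, by 3.34 and the helix-loop-helix gene Bhlhe40 by 5.50. The methyltransferase gene Dnmt3a rose by 2.30. Ppargc1b and Esrra, coactivator and receptor of mitochondrial genes, rose by 4.50 and 1.57. Of the MiT family, Tfec rose by 0.56 and Tfe3 fell by 0.88, whereas Mitf (0.47, SE 0.21, adjusted p = 0.0574) and Tfeb (0.01, SE 0.17) did not pass. Spi1, which encodes PU.1, rose by 1.30, and Ikzf1 fell by 2.10. Myc rose by 2.08, a call lost without number 1 or 2 of M-CSF alone or number 3 of the RANKL group.

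Across the 871 genes that the deposited table assigns to a transcription factor family, 214 (24.6%) rose and 298 (34.2%) fell. The families named next were chosen after their values were seen. The Rel homology family had 7 rises and 1 fall among 10. STAT factors had 0 rises and 6 falls among 7, and the RFX family 0 and 5 among 5. Interferon regulatory factors had 1 rise and 6 falls among 8, with Irf8 at −3.10 and the rise that of Irf3 at 0.34. The CUT family had 4 rises among 4. The largest factor rise was that of Mycl, at 10.66 log2 units, a relative of Myc. C/EBP factors had 0 rises and 3 falls among 4, with Cebpa, a driver of the monocyte and granulocyte lineage, falling by 2.71. Mef2c and Bhlhe41 fell by 3.74 and 3.05, the second being the close relative of Bhlhe40.

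Known inhibitors of osteoclast formation were mostly lower. Of 22 tested, 12 fell and 2 rose (median −0.54). Irf8, whose loss gives severe bone loss in mice, stood at 261, 173 and 146 CPM in M-CSF alone and 30.7, 19.3 and 17.3 CPM with RANKL. The Notch effector gene Rbpj fell by 1.54 and the antioxidant regulator gene Nfe2l2 (NRF2) by 1.15. Receptors for inhibitory cytokines fell too: Il10ra by 2.81, Il4ra by 1.99, Ifngr1 by 1.06 and Ifnar2 by 1.00, while Ifngr2 rose by 0.56. Id3 rose by 2.19, from 6.37 to 28.9 CPM. Bcl6 fell by 0.73, and Id1, Id2, Socs1 and Socs3 were among the 8 that did not pass, with values from 0.09 to 0.59 for these 4.

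Receptors through which hormones and other mediators act on these cells were lower more often than higher. Of 20 tested receptors 4 rose and 12 fell (median −1.92). The purinergic receptor gene P2ry6 went from 362, 263 and 251 CPM in M-CSF alone to 42.0, 23.7 and 25.6 CPM with RANKL, and P2ry12 and P2rx7 fell by 3.34 and 2.48 log2 units. The sphingosine phosphate receptor gene S1pr1, which governs precursor migration, fell by 4.11, from 116 to 6.66 CPM, and S1pr2 by 0.66. The prostaglandin receptor gene Ptger2 fell by 3.81 and the oestrogen receptor gene Esr1 by 2.11. Rises were those of Calcr given above, the adenosine receptor genes Adora2a and Adora2b and the lysophosphatidic acid receptor gene Lpar1 (3.15), and the call of Adora2b (0.90) was lost without number 1 or 2 of M-CSF alone or number 3 of the RANKL group.

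Osteoclasts also send signals to bone-forming osteoblasts. Of 15 such genes 11 rose and 4 fell, and the rises numbered 7 without number 3 of M-CSF alone (median 2.09). Their summed share was 0.429% ± 0.0476 in M-CSF alone and 0.341% ± 0.0460 with RANKL, with overlap between the groups. The cytokine gene Lif rose from 0.0134 ± 0.0233 to 37.5 ± 5.23 CPM. Sphk1, the sphingosine kinase, rose by 7.41 log2 units and the ephrin genes Efnb2 and Efnb1 by 6.26 and 2.64. Pdgfb, a growth factor for vessels and osteoblast precursors, stood at 31.1, 16.5 and 22.5 CPM in M-CSF alone and 489, 448 and 342 CPM with RANKL. Sema4d, a semaphorin that inhibits osteoblasts, rose by 2.09. Igf1, the insulin-like growth factor, fell the most, from 970.1, 872 and 792 CPM in M-CSF alone to 81.7, 51.7 and 46.0 CPM with RANKL, and Hgf and the osteopontin gene Spp1 fell by 2.11 and 1.15.

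The proton pump and the lysosome parted. Of 18 tested V-ATPase subunit genes 17 rose and 1 fell, with a median of 1.71, and their summed share of the library went from 0.444% ± 0.0170 to 1.71% ± 0.184. The B2 subunit gene Atp6v1b2 stood at 465, 444 and 421 CPM in M-CSF alone and 3613, 3758 and 3174 CPM with RANKL, and subunit a3, encoded by Tcirg1 and mutated in osteopetrosis, rose by 2.24 log2 units. The fall was that of Atp6v0a1, the a1 form, from 268, 300.0 and 324 CPM in M-CSF alone to 69.2, 53.9 and 49.2 CPM with RANKL. The a2 form, Atp6v0a2, rose by 0.47, so that the 3 forms of 1 subunit had values of different size and sign. Likewise the d2 form Atp6v0d2 rose by 5.79 and the d1 form Atp6v0d1 by 0.26, and that call was lost without number 2 or 3 of M-CSF alone or number 1 or 2 of the RANKL group.

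Of 44 lysosomal hydrolases and membrane proteins 12 rose and 24 fell (median −0.32), and their summed share went from 4.90% ± 0.812 to 2.63% ± 0.424. The aryl sulfatase gene Arsb was the largest rise, from 29.4, 37.4 and 41.8 CPM in M-CSF alone to 853, 898 and 646 CPM with RANKL, followed by the sphingomyelinase gene Smpd1 (1.95 log2 units). All cathepsins of the list other than Ctsz (0.62) fell or did not pass. Ctsb, Ctsl and Ctss fell by 1.80, 1.72 and 2.11, and Ctsa did not pass (0.28, SE 0.12). The asparaginyl protease gene Lgmn stood at 1715, 1292 and 1042 CPM in M-CSF alone and 271, 214 and 164 CPM with RANKL. The main membrane glycoprotein genes Lamp1 and Lamp2 fell by 2.25 and 2.13. The acid lipase gene Lipa fell by 1.70 and the prosaposin gene Psap by 1.07.

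Lysosomal genes are known targets of the MiT family of factors, which bind the E-box CACGTG, so their promoters were searched for these 6 letters, which read the same on both strands. In the 250 bases before the start site, 6.02% of all 32851 RefSeq promoters of GRCm38.p6 held the motif, as did 8.22% of the 12651 promoters of protein-coding genes tested. For the 38 promoters found for 35 list genes the share was 28.9%. By call, the share was 30.0% of 10 promoters of genes that rose, 26.3% of 19 of genes that fell and 33.3% of 9 of genes not called. The motif was thus present on either side, in numbers too small to compare the shares. Promoters of a gene that rose, Glb1 (0.67, β-galactosidase), and of a gene that fell, Lgmn (−2.64), are printed as examples of motif-bearing promoters with opposite responses, with each CACGTG in capitals.
Glb1 (GRCm38.p6, chr9:114400828-114401077, plus strand): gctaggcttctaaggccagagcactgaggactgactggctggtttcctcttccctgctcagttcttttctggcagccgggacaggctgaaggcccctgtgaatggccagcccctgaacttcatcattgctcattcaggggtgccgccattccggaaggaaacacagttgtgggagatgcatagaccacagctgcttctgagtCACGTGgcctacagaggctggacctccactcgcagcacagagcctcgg
Lgmn (GRCm38.p6, chr12:102439093-102439342, minus strand): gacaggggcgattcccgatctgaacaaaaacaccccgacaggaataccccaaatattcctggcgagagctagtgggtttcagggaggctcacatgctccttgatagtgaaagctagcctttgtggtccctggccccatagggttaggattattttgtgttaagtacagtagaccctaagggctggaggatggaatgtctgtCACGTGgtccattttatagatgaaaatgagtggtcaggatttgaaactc
A match is a description of letters and not of a bound site.

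Mitochondrial genes rose with few exceptions. Of 46 nuclear genes of the respiratory chain 46 rose (median 1.45), and the groups overlapped for 0 of them. Cytochrome c, encoded by Cycs, stood at 17.5, 44.1 and 69.4 CPM in M-CSF alone and 239.7, 303 and 298 CPM with RANKL. The complex III genes Cyc1, Uqcrc2 and Uqcrfs1 rose by 2.64, 2.31 and 2.24 log2 units, the ATP synthase gene Atp5b by 1.92, and the smallest rise was 0.47 (Ndufa2). The 12 tested genes of the mitochondrial genome rose too (median 1.48), and together they took 1.57% ± 0.0907 and 3.56% ± 0.510 of the library. These transcripts have near-identical nuclear copies, so reads may be split between them. Of 26 genes of pyruvate oxidation and the citric acid cycle 22 rose and 0 fell (median 1.50), among them the isocitrate dehydrogenase gene Idh3a, from 18.1, 42.6 and 61.5 CPM in M-CSF alone to 258, 341 and 335 CPM with RANKL, and citrate synthase (Cs) at 2.09. Among the 4 that did not pass were Glud1, the pyruvate carboxylase gene Pcx and the pyruvate carrier gene Mpc1, with values from −0.18 to 0.02 for these 3, while its partner Mpc2 rose by 1.97.

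Glycolysis genes moved little and in both directions: 9 of 20 rose and 5 fell (median 0.27), and the falls numbered 2 without number 3 of M-CSF alone. The hexokinase genes differed. Hk1 rose by 1.01 log2 units, Hk3 fell by 1.93, from 414 to 109 CPM, and Hk2 did not pass (−0.48, SE 0.22). Pdk1, which restrains pyruvate dehydrogenase, rose by 1.42. Gapdh stood at 2140.0, 2527 and 2551 CPM in M-CSF alone and 2430.1, 2527 and 2612 CPM with RANKL, its groups overlapped, and it did not pass.

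Genes of amino acid supply and of ribosomes were mostly higher. Of 22 genes of serine, one-carbon and amino acid supply 14 rose and 2 fell (median 0.94), and 1 fell without number 2 or 3 of M-CSF alone or number 1 or 2 of the RANKL group. Slc1a5, the glutamine carrier, stood at 37.2, 44.0 and 52.0 CPM in M-CSF alone and 454, 479 and 465 CPM with RANKL, and the asparagine synthetase gene Asns rose by 2.96 and the arginine carrier gene Slc7a1 by 1.90. Within the RANKL group number 1 was the lowest library for 14 of the 14 rises. Of 82 cytosolic ribosomal protein genes 67 rose and 0 fell, by a median of 0.39, and of 77 mitochondrial ribosomal protein genes 65 rose and 1 fell (median 0.85). The fall was that of Mrpl33 (−0.52), and 2 fell without number 2 of the RANKL group. In the cytosolic list 1 cytosolic gene fell without number 1 of M-CSF alone. Proteasome genes had 14 rises and 3 falls among 38 (median 0.20), with 8 rises without number 1 of M-CSF alone and 1 fall without number 3 of M-CSF alone or number 1 of the RANKL group.

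Iron and creatine genes included some of the largest single changes. The transferrin receptor gene Tfrc, for iron uptake, rose from 189, 270.3 and 277 CPM in M-CSF alone to 685, 1122 and 1172 CPM with RANKL, and the metal transporter gene Slc11a2 by 1.87 log2 units. The iron exporter gene Slc40a1, ferroportin, went from 852, 743 and 595 CPM in M-CSF alone to 118, 74.0 and 48.2 CPM with RANKL, and the haem oxygenase gene Hmox1 fell by 3.06. Ferritin fell in both chains, Fth1 by 1.93 and Ftl1 by 1.32. In all 9 of the 17 iron and haem genes rose and 6 fell (median 0.31). Their summed share nevertheless went from 1.82% ± 0.0655 in M-CSF alone to 0.747% ± 0.0355 with RANKL. Of 6 genes of creatine use 4 rose and 2 fell (median 2.96, or 2.82 with Ckmt1 at its bound). The cytosolic creatine kinase gene Ckb stood at 360.0, 459 and 581 CPM in M-CSF alone and 8302, 7198 and 4791 CPM with RANKL, the mitochondrial form Ckmt1 had 0 counts in M-CSF alone and was at least 328-fold higher with RANKL, and the creatine carrier gene Slc6a8 rose by 2.06. The genes of creatine synthesis, Gatm and Gamt, fell by 3.28 and 1.07.

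Of 19 genes of oxidant production and defence 5 rose and 10 fell (median −0.70). Cybb, the catalytic subunit of the phagocyte NADPH oxidase, stood at 922, 759 and 634 CPM in M-CSF alone and 204, 111 and 97.8 CPM with RANKL, and its subunit gene Ncf1 fell by 2.56, while Ncf4 rose by 1.45. The catalase gene Cat fell by 2.35 and the peroxiredoxin genes Prdx1 and Prdx5 by 1.78 and 2.05, whereas the superoxide dismutase genes Sod2 and Sod1 rose by 1.32 and 0.50.

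Genes of cholesterol metabolism were lower, by amounts that differed with the library. Of 22 synthesis genes 14 fell and 0 rose (median −0.89), and the falls numbered 9 without number 3 of M-CSF alone. Fdft1, which encodes squalene synthase, stood at 23.2, 46.4 and 57.0 CPM in M-CSF alone and 11.3, 12.8 and 16.6 CPM with RANKL, and the mevalonate kinase gene Mvk fell by 1.07 log2 units. Number 1 was the lowest library of M-CSF alone for 14 of the 14 falls, and the summed level of the list in that library, 1084 CPM, lay below the 1137 to 1269 CPM of the RANKL libraries. Of 15 genes of efflux and of the sterol receptor LXR 9 fell and 2 rose, and 5 fell without number 1 of M-CSF alone. Apoe, the lipid-carrying apolipoprotein, stood at 6318, 3399 and 2499 CPM in M-CSF alone and 422, 317 and 228 CPM with RANKL. The 2 rises were the LXRα gene Nr1h3 (2.72) and the exporter gene Abcg1 (2.06), and the related exporter gene Abca1 had a value of −0.87 (SE 0.26), a call lost without number 1 of M-CSF alone or number 3 of the RANKL group.

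Macrophage genes fell across uptake, opsonin and identity lists. These are bulk samples, so that fewer cells of a type and less RNA per cell cannot be told apart. Of 18 uptake and scavenger receptor genes 17 fell and 0 rose (median −2.29), and their summed share went from 1.67% ± 0.126 to 0.181% ± 0.0241. Stab1, a clearance receptor, stood at 5979.7, 6308 and 6079 CPM in M-CSF alone and 370.0, 236 and 212 CPM with RANKL. The haemoglobin receptor gene Cd163 fell by 4.84 log2 units, the apoptotic cell receptor genes Mertk and Axl by 3.05 and 1.98, and the lipoprotein receptor gene Lrp1 by 2.30. Scarb1, the receptor for high-density lipoprotein, had the smallest fall, −0.36, and the phosphatidylserine receptor gene Timd4, at 0.0932 and 0.349 CPM, did not pass.

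Of 14 Fc receptor and complement genes 13 fell and 0 rose (median −3.06). The complement gene C1qa stood at 1139, 1263 and 1116 CPM in M-CSF alone and 157, 99.6 and 65.6 CPM with RANKL, and C1qb and C1qc fell by 3.32 and 3.49. The Fc receptor genes Fcgr1, Fcgr3 and Fcgr2b fell by 3.93, 3.79 and 3.37, and the αM integrin gene Itgam by 2.02, whereas its relative Itgax did not pass (0.02, SE 0.35). Of 23 genes of macrophage identity 21 fell and 1 rose (median −3.27). The transcription factor gene Maf stood at 928, 885 and 881 CPM in M-CSF alone and 121, 80.1 and 68.6 CPM with RANKL, and Adgre1, which encodes F4/80, at 1403, 1047 and 921 CPM in M-CSF alone and 246, 142 and 131 CPM with RANKL. The M-CSF receptor gene Csf1r stood at 3491, 2190.4 and 1886 CPM in M-CSF alone and 2171, 1879 and 1517 CPM with RANKL, its groups overlapped, and it did not pass (adjusted p = 0.0577). The rise was that of Cd68 (0.29), a lysosomal glycoprotein, a call lost without number 2 or 3 of M-CSF alone or number 1 or 2 of the RANKL group.

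Sensors of microbes were lower. Of 18 Toll-like receptor and inflammatory genes 14 fell and 1 rose (median −1.71). The endosomal receptor genes Tlr8, Tlr7 and Tlr13 fell by 3.75, 3.47 and 2.97 log2 units, the surface receptor genes Tlr4 and Tlr2 by 1.74 and 1.69, and the inflammasome gene Nlrp3 by 2.58. The rise was Il1rn, the natural antagonist of interleukin 1, from 5.41, 10.8 and 14.5 CPM in M-CSF alone to 72.6, 114 and 115 CPM with RANKL. Tnf, at 6.65 and 3.53 CPM, did not pass (adjusted p = 0.206). Of 23 chemokines and receptors 5 rose and 10 fell (median −1.27). Their summed share was 0.185% ± 0.0238 in M-CSF alone and 0.253% ± 0.0515 with RANKL, with overlap between the groups. The receptor gene Ccr1 stood at 10.8, 19.0 and 29.1 CPM in M-CSF alone and 377, 509 and 496 CPM with RANKL, Ccr3 rose by 3.83, and the ligand gene Ccl9, which binds CCR1, rose by 1.17. The monocyte receptor gene Ccr2 fell by 3.39 and the ligand gene Ccl6 by 4.36.

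Interferon-stimulated genes were low in both groups and lower with RANKL. Of 28 tested, 26 fell and 0 rose (median −2.29), and their summed share went from 0.113% ± 0.0274 to 0.0294% ± 0.00472. The number of falls depended on 1 library. Number 1 of M-CSF alone was the highest for 25 of the 26, and without it 17 fell. The tetherin gene Bst2 stood at 169.7, 175 and 169 CPM in M-CSF alone and 37.5, 33.5 and 28.5 CPM with RANKL. The 2′-5′ oligoadenylate synthetase gene Oasl2 stood at 88.4, 53.1 and 35.0 CPM in M-CSF alone and 6.67, 3.30 and 3.11 CPM with RANKL. The call of either was kept when any 1 library of these groups was left out, in fits that kept the other groups of the series. Stat2 and Irf9, which together carry the type I interferon signal, fell by 2.26 and 2.01 log2 units. Ifit3, an antiviral gene, stood at 18.9, 8.76 and 2.98 CPM in M-CSF alone and 2.45, 1.70 and 0.479 CPM with RANKL, a call lost without number 1 of M-CSF alone or number 3 of the RANKL group. In the 250 bases before the start site, the core of the interferon-stimulated response element (GAAA, any 2 bases and GAAA, on either strand) was held by 32.0% of 25 promoters of 21 list genes. It was held by 2.98% of all RefSeq promoters and 2.77% of those of protein-coding genes tested. The promoter of Ifit3 is printed because it held 2 matches, shown in capitals.
Ifit3 (GRCm38.p6, chr19:34583279-34583528, plus strand): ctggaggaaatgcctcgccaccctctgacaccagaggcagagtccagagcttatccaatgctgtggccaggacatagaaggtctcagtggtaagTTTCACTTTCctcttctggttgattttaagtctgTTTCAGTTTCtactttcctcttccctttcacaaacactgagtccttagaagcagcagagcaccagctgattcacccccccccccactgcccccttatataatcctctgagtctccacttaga
The calls among genes of antigen presentation were near the share over all genes: of 15, 5 fell, among them the class I genes H2-D1 (−0.85) and B2m (−1.08), and 4 rose, among them the class II invariant chain gene Cd74 (1.84) and the transporter gene Tap2 (1.95), with 7 rises without number 1 of M-CSF alone and 2 without number 1 of the RANKL group.

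Genes of dividing cells were lower with RANKL. Of 25 genes of mitosis 25 fell (median −1.25) and 0 rose. The proliferation marker gene Mki67 stood at 599.9, 731 and 854 CPM in M-CSF alone and 223, 245 and 354 CPM with RANKL, the kinetochore gene Cenpf at 128, 97.9 and 116 CPM in M-CSF alone and 31.9, 30.9 and 42.7 CPM with RANKL and the mitotic kinesin gene Kif23 at 103, 102 and 114 CPM in M-CSF alone and 32.3, 25.7 and 39.9 CPM with RANKL. All 3 were still detected in every library with RANKL. Of 25 genes of DNA replication and S phase 12 fell and 1 rose (median −0.68), and 21 fell without number 1 of M-CSF alone, the lowest library of that group for 12 of the 12 falls. The sliding clamp gene Pcna stood at 138, 281 and 351 CPM in M-CSF alone and 104, 126 and 157 CPM with RANKL, so that number 1 of M-CSF alone lay within the range of the libraries with RANKL. The rise was that of Cdt1, a licensing factor, at 1.10.

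The CCAAT box, bound by the factor NF-Y, is known from promoters of mitotic genes. In the 250 bases before the start site, CCAAT on either strand was held by 90.5% of 21 promoters of 20 mitosis genes, 60.9% of 23 promoters of S phase genes and 84.2% of 19 promoters of cholesterol synthesis genes. It was held by 33.8% of all RefSeq promoters and 35.3% of those of protein-coding genes tested. Lists that did not fall held it as well: the share was 81.8% of 11 promoters for antigen presentation, 55.2% of 29 for pyruvate and citric acid cycle genes and 52.4% of 21 for serine and amino acid supply. The promoters of Hmmr, a spindle gene that fell by 1.41, and of Cenpf are printed because each held several matches. CCAAT or its reverse complement ATTGG is in capitals.
Hmmr (GRCm38.p6, chr11:40733438-40733687, minus strand): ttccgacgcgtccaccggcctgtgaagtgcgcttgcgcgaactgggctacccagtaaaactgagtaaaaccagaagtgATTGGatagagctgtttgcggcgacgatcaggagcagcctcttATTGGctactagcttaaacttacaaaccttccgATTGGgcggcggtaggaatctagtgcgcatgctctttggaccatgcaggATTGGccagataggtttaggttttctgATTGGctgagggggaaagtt
Cenpf (GRCm38.p6, chr1:189688087-189688336, minus strand): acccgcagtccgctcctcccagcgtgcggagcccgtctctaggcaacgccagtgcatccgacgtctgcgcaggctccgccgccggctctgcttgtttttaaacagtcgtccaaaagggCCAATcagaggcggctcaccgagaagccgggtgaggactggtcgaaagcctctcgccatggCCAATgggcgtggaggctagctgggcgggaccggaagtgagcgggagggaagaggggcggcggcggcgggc
In Hmmr the matches numbered 5 and in Cenpf 2. These letters are common, and no binding was measured.

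Regulators of the cell cycle other than these moved unevenly. Of 15 D cyclins, their kinases and inhibitors 9 fell and 2 rose (median −1.16). Ccnd2 stood at 0.559, 7.74 and 18.0 CPM in M-CSF alone and 0.380, 0.774 and 0.288 CPM with RANKL, so that number 1 of M-CSF alone overlapped with RANKL, and Ccnd3 fell by 1.43. The p21 gene Cdkn1a fell by 1.69, from 322 to 99.4 CPM, while the p15 gene Cdkn2b rose by 3.31 and the kinase gene Cdk6 by 1.02. Cdkn1b, which encodes p27, did not pass (−0.14, SE 0.21). Of 16 Bcl2 family genes 8 rose and 6 fell (median 0.14). The survival gene Mcl1 rose by 0.55 and Bcl2l1 (BCL-XL) fell by 2.19, and the death-promoting gene Pmaip1 (NOXA) stood at 10.7, 6.20 and 5.08 CPM in M-CSF alone and 138, 107 and 61.2 CPM with RANKL while Bax and Bid fell by 1.17 and 1.08.

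**Figure D4:**
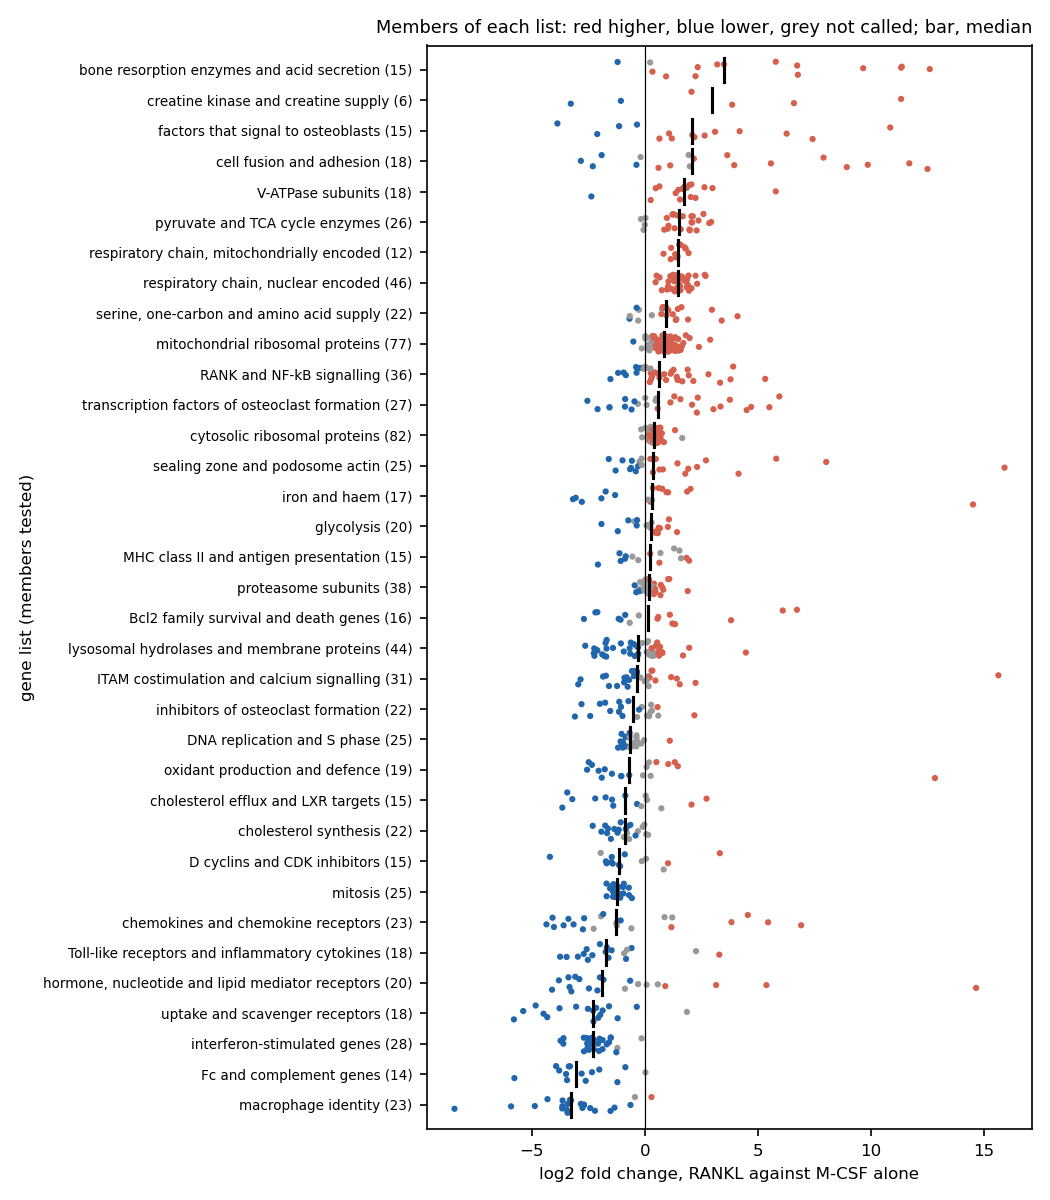
Log2 fold change of RANKL against M-CSF alone (x axis) for the tested members of 35 gene lists (y axis, with the number tested), 1 point per gene. Red points were called higher, blue lower and grey neither, and black bars are medians. Medians run from −3.27 (macrophage identity) to 3.50 (resorption).

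Markers of other cells that a marrow culture could hold were low in both groups. The summed share of the neutrophil list was 0.0151% ± 0.00143 with M-CSF alone against 0.00812% ± 0.00155 with RANKL, and 7 of its 13 tested genes fell and 1 rose. The count of falls was 2 without number 2 or 3 of M-CSF alone or number 3 of the RANKL group and 3 without number 1 of the RANKL group, and the rise was lost without number 3 of the RANKL group. Shares of stromal, endothelial and dendritic cell lists lay between 0.000688% and 0.00295%. The lymphoid list went from 0.00714% ± 0.00124 to 0.00102% ± 0.000238 and the erythroid and megakaryocyte list from 0.0378% ± 0.00521 to 0.00349% ± 0.000886, the latter mostly through the platelet factor gene Pf4 (−3.46), which macrophages also express. Of the 13 lymphoid markers 2 were tested and both fell, 1 of them without number 2 or 3 of the RANKL group, and the other was the interleukin 7 receptor gene Il7r (−2.83). The T and B cell genes Cd3e and Ms4a1 were too low to be tested. Of 10 dendritic cell markers 8 were tested, 5 rose and 2 fell, with 3 rises without number 1 or 3 of M-CSF alone or number 3 of the RANKL group. Among them Zbtb46 rose from 0.304 to 6.58 CPM. The mast cell genes Kit and Gata2 rose from 0.244 and 0.0445 to 2.09 and 1.46 CPM, and the other 7 of that list were too low to be tested. In the stromal list 1 of 8 tested genes rose, the osteoblast and precursor factor gene Runx2 (1.17), and in the endothelial list 1 of 4 fell, a call lost without number 3 of M-CSF alone or number 2 or 3 of the RANKL group. The part of such cells in the results above was not tested.

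By day 5 the response of control cells had changed for part of these genes. The response at day 5 less that at day 3, tested as an interaction, passed for 2103 of 15035 genes (14%), 1091 (7.26%) higher and 1012 (6.73%) lower. Every mitosis gene differed: 25 of 25 genes differed, all higher at day 5, where their median response was 2.68 log2 units against −1.25 at day 3. For Cenpf the means were 114 and 35.2 CPM at day 3 and 6.64 and 95.4 CPM at day 5, with M-CSF alone named first each time. Its mean in M-CSF alone was lower at day 5 than at day 3, and its mean with RANKL was higher. The nuclear respiratory chain genes had a lower response at day 5 for 27 of 46 (median 0.95), and cytosolic ribosomal protein genes for 33 of 82, where the median was 0.07. The resorption list moved little as a whole, with a median of 3.20 at day 5, 2 members higher and 2 lower. Ctsk was higher by 1.26 (SE 0.32, adjusted p = 0.0114) and Mmp9 lower by 1.68 (SE 0.29, adjusted p = 0.000464) log2 units. The mean of Mmp9 was 9.01 CPM at day 3 and 23.9 CPM at day 5 in M-CSF alone, and 23742 and 19654 CPM with RANKL.

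**Figure D5:**
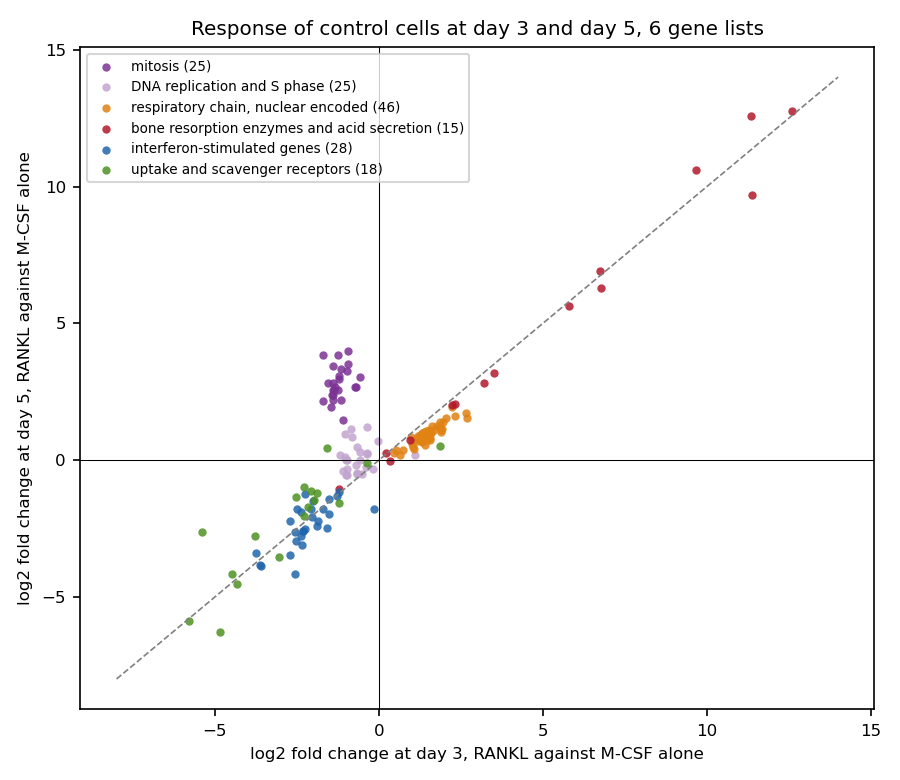
Log2 fold change of RANKL against M-CSF alone at day 5 (y axis) against that at day 3 (x axis) in control cells for 6 gene lists, 1 point per gene. The dashed line marks equal values. The 25 mitosis genes lie below 0 at day 3 and above 0 at day 5, and the 13 resorption genes called higher at day 3 run from −0.03 to 12.77 at day 5.

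The day 3 response was also compared with that of the cells carrying LysM-Cre. In the libraries labelled Runx1 overexpression, Runx1 stood at 86.0 ± 11.7 CPM (mean ± SD, n = 3) against 79.4 ± 12.8 CPM in control cells in M-CSF alone, where the values overlapped. With RANKL its libraries stood at 53.6, 67.4 and 52.7 CPM against 52.4, 50.6 and 51.6 CPM in control cells, without overlap but with 1 library, number 2, well above the others. The sources used here do not say whether reads of the transgene fall on Runx1. The difference of the responses passed for 0 of 15035 genes (0%) with edgeR, DESeq2 and limma-voom, with 242, 275 and 238 genes at an unadjusted p under 0.05. The 242 genes are 1.61% of those tested, a smaller share than a threshold of 0.05 passes when no gene differs. The pair of number 3 with LysM-Cre at day 3 carried 1164 reads of 4 Y-linked genes, while the other 5 numbered pairs carried 0 or 1. Without that number the count was still 0, with 541 genes at an unadjusted p under 0.05. The differences for the markers were −0.01 (SE 0.30) for Ctsk, 1.10 (SE 0.30) for Mmp9, 0.00 (SE 0.31) for Acp5 and 0.26 (SE 0.39) for Mrc1 in log2 units, with an adjusted p = 1 for each. A difference that does not pass does not show that the responses were alike.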

How the data were processed

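Gene counts for all 24 libraries were deposited by the authors in 1 table. STAR, DESeq2 and GRCm39 are named, with no role, in the submitters' processing notes, while positions of 98.3% of the identifiers match GRCm38. The sources used here give no counter and no strand setting, so overlapping and antisense genes and near-identical copies are uncertain. The deposited counts were fitted here with edgeR 4.0.16 (R 4.3.3): 15035 of 54532 genes passed its default filter (filterByExpr), scaled by TMM, with 1 coefficient per group over all 24 libraries, the robust quasi-likelihood test and Benjamini-Hochberg adjustment at 0.05. All 24 libraries share 1 estimate of spread, which gives 16 residual degrees of freedom. Differences of responses were contrasts of the same fit. CPM were computed on library totals multiplied by their TMM factor. Bounds against 0 counts and intervals of this kind cover counting error only.

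In simulated data made for the day 3 comparison, 63 of 100 genes changed 2-fold and 92 of 100 changed 4-fold were recovered among 15035 genes, with 10 false calls. All other genes were simulated without a change, whereas 59.1% of genes were called in the data, and the changed genes were drawn above a minimum count. The adjustment thus acts differently in the 2 settings, and these shares do not give the recovery in the real comparison. The replicates differed from each other by more than sampling noise. Members and lists were chosen with earlier results of these data known. Genes named were the 4 markers, the 12 largest rises and 12 largest falls (average log2 CPM of at least 1, no overlap), the 10 largest gains and losses in CPM, and of each list the members with the smallest p, the largest changes, and those against the list's direction or not called. The largest day differences in each direction were named too, taken only from genes that passed the interaction test. Members named beyond these rules were chosen after their values were seen. Promoters came from RefSeq (GRCm38.p6), which held one for 9915 of 12586 tested protein-coding genes. Every list was also searched for other motifs, those of AP-1, NF-κB, PU.1 and NRF1 and the CHR element. Shares are given above only for CACGTG, the interferon-stimulated response element core and CCAAT, and not for every list. DESeq2 1.42.0, limma-voom (limma 3.58.1), other scalings, filters, sets of libraries and a replicate block were alternatives. Same-numbered libraries of both media had correlated deviations of 0.324, 0.0984 and 0.310, against −0.292 to 0.0284 for libraries of different number. The labels do not say what the numbers stand for, so the main fit left the libraries unpaired. It therefore ignores any pairing by number, and the replicate block, with 9048 genes called against 8888, was the alternative that used it.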

Additional observations from a re-analysis of the deposited data

Results flagged for a closer look

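For 18 named genes the response to RANKL in control cells differed between day 5 and day 3 by the interaction test in edgeR (Benjamini-Hochberg adjusted). The 6 largest differences in each direction were named only from genes that passed this test. The count of 18 is thus in part fixed by that choice. Values are the log2 response at day 5 less that at day 3. The 6 largest differences upward were in genes of dividing cells, Cenpf by 5.54 (adjusted p = 4.15e-10), Sapcd2 by 5.41, Aspm by 5.30, Pif1 by 5.19, Ccnb2 by 5.09 (adjusted p = 2.31e-12) and Cdkn3 by 4.97. Their responses were negative at day 3, such as −1.24 for Ccnb2, and positive at day 5, with 3.85 for the same gene. Of the markers, Ctsk was higher by 1.26 (adjusted p = 0.0114) and Acp5 by 0.94 (adjusted p = 0.0444), while Mmp9 differed by −1.68 (adjusted p = 0.000464). The call of Acp5 was lost without number 1 or 2 of M-CSF alone (0.84 and 0.91) or number 2 or 3 of the RANKL group (0.98 and 0.77).

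The fall of the scavenger receptor gene Marco was smaller at day 5, with a difference of 2.78 (adjusted p = 0.00253), and that of the ferritin gene Ftl1 by 0.58 (adjusted p = 0.00402). Genes whose rise was smaller at day 5 included those of the collagen cross-linking enzyme Lox (−5.36, adjusted p = 0.00138), filamin C (Flnc, −4.57, adjusted p = 0.00362) and the secreted protein Fstl1 (−4.21, adjusted p = 0.0177). The collagen gene Col5a3 (−4.26, adjusted p = 0.027) and Ocstamp (−3.32, adjusted p = 0.0167) rest on few counts in M-CSF alone, 9 and 5 over the day 3 libraries. Their calls were lost without number 2 or 3 of M-CSF alone for Col5a3 (−4.07 and −3.98) and without number 1 of M-CSF alone for Ocstamp (−3.11). Scin and the serotonin receptor gene Htr1b had 0 counts in M-CSF alone at day 3. Their fitted differences of −5.25 (adjusted p = 0.0267) and −5.12 (adjusted p = 0.0351) therefore depend on how a count of 0 is treated, measure no size, and lost their calls without any 1 library of M-CSF alone, and for Htr1b also without number 2 of the RANKL group. The causes were not tested.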

How the results depend on the processing

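Under every alternative tried, 0 of the 769 called genes among the 949 list and named genes reversed direction. At least 1 alternative ended the call of 111 of them, 108 of these by leaving out 1 library, and 78 genes gained a call. The 8888 genes called became 7419 (only the 6 libraries) to 9049 (DESeq2). Without 1 of the 6 day 3 control libraries at a time they numbered 8051 to 8576, with 4007 to 4318 higher and 4044 to 4281 lower, and 592 to 630 were over 16-fold higher. The 103 genes over 16-fold lower became 75 with only the 6 libraries or with a filter of 10 counts. They became 171 with no filter on low counts and 83 to 168 without 1 library. The replicate block gave 4535 higher and 4513 lower genes, each library correlated best with that of its own number, and the day differences under the block were 1183 higher and 1127 lower. The 2103 day differences became 1482 with no filter and 2632 with DESeq2. Without 1 of the same 6 libraries they numbered 1598 to 2091, while no day 5 library was left out. The 1012 lower ones became 589 with no filter, 685 with library totals alone, 1505 with DESeq2 and 755 to 1045 without 1 of those 6. The share of day differences that were higher was 51.9%, but 67.2% with library totals alone, 42.3% with upper quartile scaling and 42.8% with DESeq2. The genotype difference passed for 0 genes throughout. Of 84 list counts 22 moved by over 1.5 times under at least 1 alternative, and the causes were not tested. A count is 0.0403 to 0.0516 CPM in these libraries, which limits folds of genes near 0.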
